A study of Mus musculus with 12 samples.

Results

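To describe how macrophages set the surface signals that T cells read, 9 co-stimulatory and checkpoint genes were followed through a transcriptome of mouse peritoneal macrophages. The genes were Cd80, Cd86, Cd40, Icosl, Cd274, Pdcd1lg2, Havcr2, Cd83 and Cd69, taken by name for their known roles, with earlier results of these data known. No measured value enters the rule. They were 9 of 16920 genes in the deposited count tables, and each of the 9 passed the filter on low counts that left 12064 genes for testing. The libraries came from wild-type (WT) mice and from mice labelled Ythdf1 knockout (KO), which lack by design a protein that reads the m6A mark on mRNA. Both were on the C57BL/6 background and aged 6 to 10 weeks, and the knockout was made in the whole animal with CRISPR/Cas9, so it was not confined to macrophages. Peritoneal cells were elicited with 6% starch broth over 3 days according to the series record, whereas the study's methods name thioglycollate. The cells were cultured overnight and then given PBS, or lipopolysaccharide (LPS, a component of the bacterial outer membrane) at 1 μg/mL, for 6 h. Each of the 4 groups, WT PBS, WT LPS, KO PBS and KO LPS, held 3 libraries, which the study calls biological replicates.

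A T cell needs a second signal beside antigen, and macrophages and dendritic cells deliver it through paired surface proteins. CD80 and CD86 engage CD28 on the T cell to activate it, or CTLA-4 to restrain it, ICOS ligand engages ICOS, and CD40 receives a signal back from CD40 ligand on helper T cells. PD-L1 (Cd274) and PD-L2 (Pdcd1lg2) engage PD-1 and dampen the T cell. TIM-3 (Havcr2) is an inhibitory receptor that myeloid cells and exhausted T cells both carry, CD83 is a maturation marker that keeps MHC class II and CD86 on the surface, and CD69 is an early activation antigen of many leukocytes. Toll-like receptor 4, which senses LPS, is a classical inducer of several of them.

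Gene spans were NCBI positions on GRCm38.p6, and strands and transcript lengths came from GENCODE vM21. Cd274 (chr19:29362107-29388095, plus strand) and Pdcd1lg2 (chr19:29410919-29472927, plus strand) lay 22823 bases apart with 0 coding genes starting between them. Cd86 (chr16:36568956-36666158, minus strand) and Cd80 (chr16:38457430-38495958, plus strand) shared a chromosome but lay 1791 kb apart, with 24 coding genes starting between them. The other members were single: Cd40 (chr2:165055614-165071654, plus strand), Cd83 (chr13:43785112-43803133, plus strand), Icosl (chr10:78069368-78079525, plus strand), Havcr2 (chr11:46454931-46481255, plus strand) and Cd69 (chr6:129267324-129275375, minus strand). RefSeq promoter windows on GRCm38.p6, taken here as the 250 bases before the annotated start, were given for 5 of the 9 members. The RefSeq promoter starts of Cd274 and Cd80 lie inside the gene spans given here, so their windows lie downstream of where the spans begin. The 4 shown are those of the neighbouring PD-1 ligands, which responded to LPS to different degrees, of Icosl, which differed most between the genotype labels, and of Havcr2, which fell where the other members rose. All 4 lie on the plus strand and run 5′ to 3′, at chr19:29367188-29367437 (Cd274), chr19:29410669-29410918 (Pdcd1lg2), chr10:78069118-78069367 (Icosl) and chr11:46454681-46454930 (Havcr2), and capitals mark the motif matches described after them.
Cd274: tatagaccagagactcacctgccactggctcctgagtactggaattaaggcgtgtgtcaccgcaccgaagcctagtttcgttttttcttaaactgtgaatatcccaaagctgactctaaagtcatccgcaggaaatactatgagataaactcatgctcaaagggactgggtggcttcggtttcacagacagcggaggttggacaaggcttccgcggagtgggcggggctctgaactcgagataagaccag
Pdcd1lg2: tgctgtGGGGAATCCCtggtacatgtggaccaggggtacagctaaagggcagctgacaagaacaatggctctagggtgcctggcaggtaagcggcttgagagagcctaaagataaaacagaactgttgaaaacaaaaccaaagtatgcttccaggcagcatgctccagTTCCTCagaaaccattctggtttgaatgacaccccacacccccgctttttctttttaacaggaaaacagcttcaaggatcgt
Icosl: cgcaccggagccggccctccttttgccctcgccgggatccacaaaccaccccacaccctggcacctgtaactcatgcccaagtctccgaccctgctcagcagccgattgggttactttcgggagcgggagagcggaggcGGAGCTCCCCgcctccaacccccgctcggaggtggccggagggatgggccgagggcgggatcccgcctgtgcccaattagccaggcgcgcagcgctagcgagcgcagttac
Havcr2: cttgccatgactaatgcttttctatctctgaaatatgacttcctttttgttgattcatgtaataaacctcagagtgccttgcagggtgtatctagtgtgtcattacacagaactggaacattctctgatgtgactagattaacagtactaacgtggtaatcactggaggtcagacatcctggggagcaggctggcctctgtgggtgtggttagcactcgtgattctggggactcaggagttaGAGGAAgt

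The windows were searched on both strands for 4 letter patterns: the consensus of NF-κB, the dimeric STAT pattern TTCNNNGAA, the interferon-response pattern of GAAA, any 2 bases and GAAA and the ETS-type core GAGGAA bound by PU.1. Among 32814 promoter windows of this length, 7.25% held the NF-κB consensus, 7.02% TTCNNNGAA, 2.97% the interferon-response pattern and 23.3% GAGGAA. The Pdcd1lg2 window held GGGGAATCCC, which fits the NF-κB consensus on either strand, at 244 bases before the start and GAGGAA on the minus strand at 82 bases. The Icosl window held an NF-κB match on the minus strand at 111 bases, and the Havcr2 window held GAGGAA at 8 bases. None of the 4 patterns was written in the Cd274 or the Cd80 window, which says nothing of the sequence before their gene spans. These are matches of letters in short windows, and binding was not measured.

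Depth was even, with 21546274 to 22017005 expected counts per library, and levels are given as CPM, the expected counts divided by the library total after TMM scaling, on which 3 counts correspond to 0.105 to 0.187 CPM. The 8 macrophage markers summed to 17170 to 19943 CPM in every library, most of it Lyz2. Under LPS, 1 of the 8 was higher and 3 lower with the KO label, beside 41.4% of all genes called (22.1% higher and 19.3% lower). The log2 differences of these markers were 0.68 for Cd14, -1.24 for Mertk, -0.53 for Csf1r and -0.21 for Cd68. The T cell receptor genes Cd3e, Cd3d and Cd3g held 0 to 2 counts each, and the natural killer genes Ncr1 and Gzma were at or near 0. The summed level of 8 T cell markers was 2.48 to 3.43 CPM in PBS libraries, 10.6 to 14.2 in WT LPS and 5.09 to 5.88 in KO LPS. Most of the level under LPS was Lck, with 10.3 ± 2.41 CPM for WT against 3.96 ± 0.278 for the KO label, whereas Cd4 and Cd2 fell with LPS under both labels. The 8 dendritic cell markers summed to 1.295 to 2.53 CPM in PBS and 11.1 to 14.1 CPM in LPS libraries, most of it Ccr7, with 8.82 ± 0.726 CPM for WT against 10.1 ± 0.459 for the KO label under LPS. The 5 natural killer markers summed to 26.1 to 36.6 CPM under LPS, nearly all of it Klrk1. The neutrophil markers summed to 8.65 to 10.3 CPM under PBS and 18.2 to 26.0 CPM under LPS. The mast cell markers stayed at 0.175 to 3.44 CPM, with Kit at 0.270 ± 0.133 CPM in KO PBS and 3.22 ± 0.354 CPM in KO LPS, and the B cell markers at 0.311 to 1.92 CPM, with Cd79b lower under LPS in both labels. The part of these lists in the results was not tested. Ythdf1 mRNA was not lower in the KO-labelled libraries, with 43.5 ± 1.54 CPM (SD, n = 3) for WT PBS against 57.2 ± 1.53 for KO PBS, and 201 ± 9.37 for WT LPS against 198 ± 6.94 for KO LPS, so the label could not be checked at the level of mRNA. WT LPS replicate 1 stood apart from its group, with a mean chi-square per gene of 31.4 against replicate 2 and 24.4 against replicate 3, compared with 3.01 between replicates 2 and 3. KO LPS replicates 2 and 3 differed by 15.9, against 7.12 and 5.61 for the other pairs of that group and 2.75 to 4.63 in the PBS groups. Calls of the members that involve the WT LPS group are also given without WT LPS replicate 1 where they change. Skeletal muscle markers differed with the label, summing to 17.8 to 23.7 CPM in WT PBS, 30.0 to 35.6 in WT LPS and only 0.428 to 0.684 in KO LPS, while KO PBS replicates 1 and 2 held 16.1 and 20.4 and replicate 3 held 0.354; their part in the genotype comparisons was not tested. In bulk RNA, fewer expressing cells and less RNA per cell cannot be told apart.

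LPS raised 8 of the 9 members and lowered 1, Havcr2, in WT cells, and the same counts were obtained in KO-labelled cells (edgeR's quasi-likelihood test, adjusted p under 0.05 over 12064 genes). Across all genes, 76.7% passed this test in WT (36.5% higher and 40.2% lower) and 79.9% in KO-labelled cells (38.8% higher and 41.1% lower), so passing it was common. The balance of directions over all genes depended on the scaling, with 47.6% of the calls in WT and 48.6% in KO-labelled cells higher here, 32.5% and 33.8% with upper-quartile scaling, and 21.2% and 20.8% with library totals alone. The median log2 fold change of the members was 3.88 in WT, against -0.05 over all genes, and 4.39 in KO-labelled cells, against -0.04. In WT 9 of 9 members moved by more than 1 log2 unit, as did 36.4% of all genes, and in KO-labelled cells it was 9 of 9 against 41.7%. LPS and PBS libraries did not overlap for any member in either label, as for 78.2% and 81.3% of all genes. Together the 9 genes took 0.0233% to 0.0244% of all counts in WT PBS and 0.343% to 0.409% in WT LPS, then 0.0252% to 0.0262% in KO PBS and 0.395% to 0.401% in KO LPS. Without Cd274 and Cd40 the lowest share was 0.0103% in WT PBS, 0.0721% in WT LPS, 0.0113% in KO PBS and 0.0742% in KO LPS.

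**Figure D1:**
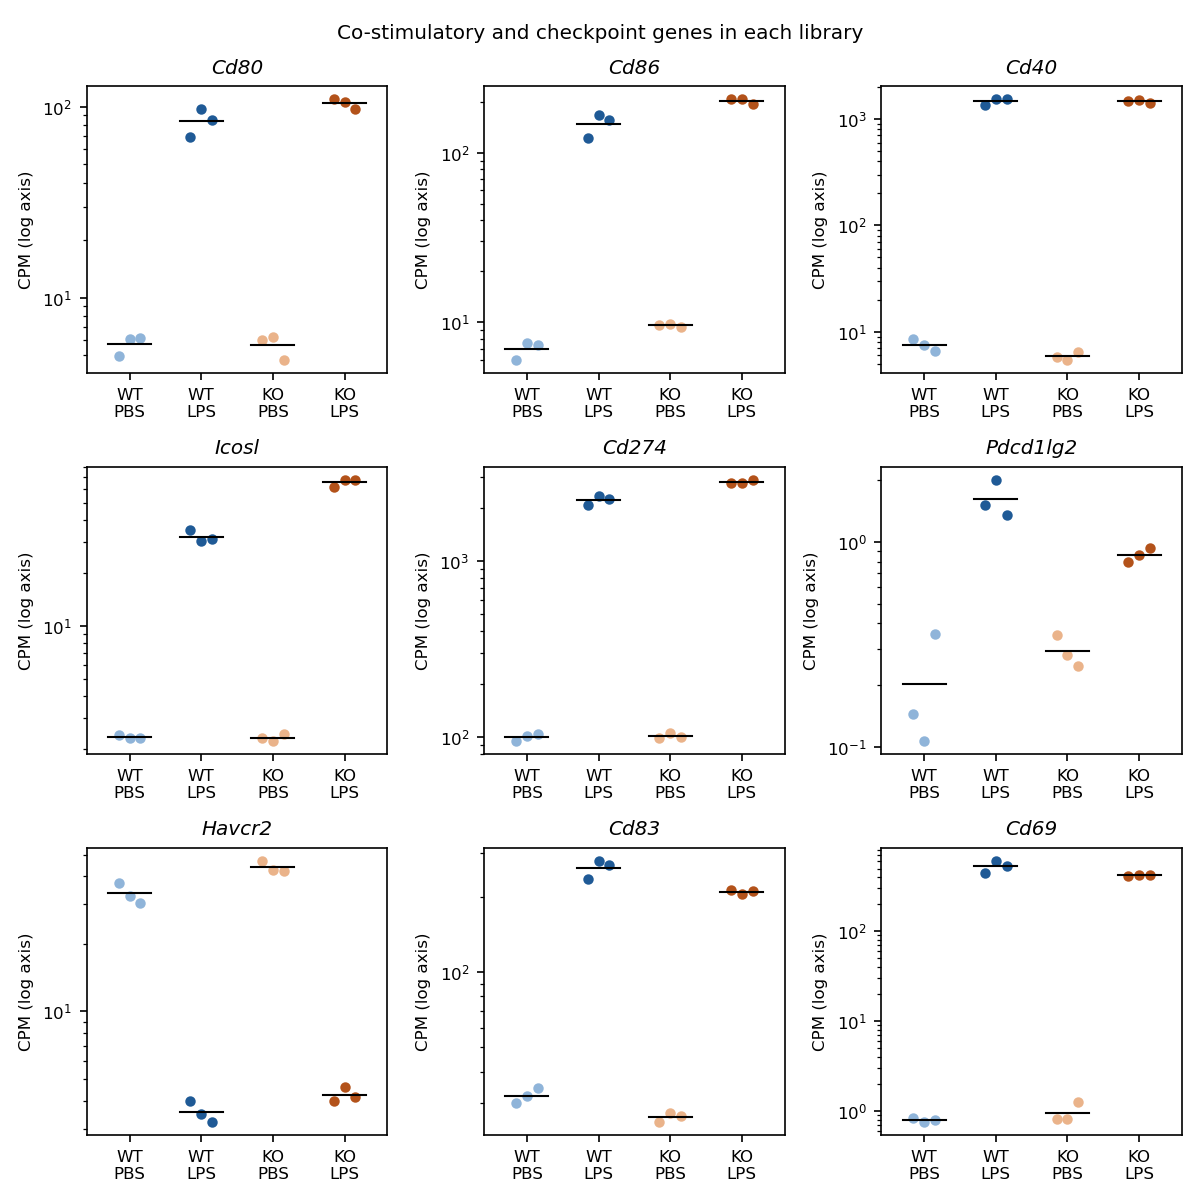
CPM of each of the 9 genes in every library, on log axes with their own range, with 1 point per library and a bar at the mean of the 3 libraries. Of the 9 panels, 8 rise from PBS to LPS under both genotype labels and Havcr2 falls; in Icosl the KO LPS points, 61.7 to 67.5 CPM, lie above the WT LPS points, 30.3 to 34.9 CPM.

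The order of abundance among the members was compared on CPM per kilobase of the longest coding transcript. In WT PBS, Cd274 led at 27.5 CPM per kb, followed by Cd83 at 13.0 and Havcr2 at 12.3, which their spread did not separate, and Cd69 and Pdcd1lg2 were lowest at 0.468 and 0.117. In WT LPS, Cd274 reached 616 CPM per kb and Cd40 495, Cd69 had moved to the third place at 313, and Havcr2, at 1.31, stood just above Pdcd1lg2 at 0.935. The same 3 genes led in KO LPS, with 778 for Cd274, 494 for Cd40 and 249.9 for Cd69. Dividing by the median transcript length instead put Cd40, at 1306 CPM per kb in WT LPS, above Cd274, so the order of these leading genes rests on which transcript is used.

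**Figure D2:**
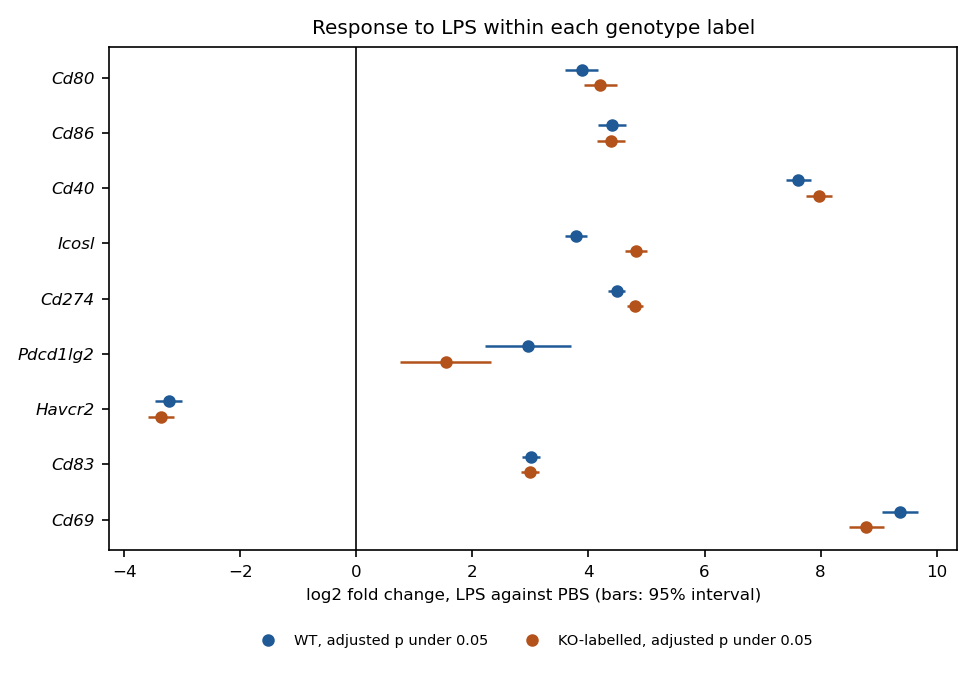
Log2 fold change of each gene, LPS against PBS, in WT (blue) and KO-labelled (orange) libraries, with bars for the 95% interval. Cd69 and Cd40 lie farthest to the right, at 9.38 and 7.62 in WT, and Havcr2 lies to the left of 0 at -3.24 in WT and -3.37 in KO-labelled cells.

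Of the CD28 ligands, Cd86 was present in WT PBS at 6.003, 7.51 and 7.40 CPM and in WT LPS at 122, 166 and 157 CPM. KO PBS libraries had 9.70, 9.83 and 9.42 CPM and KO LPS libraries 206, 207 and 193 CPM. The 4 groups did not overlap, and KO-labelled libraries were the higher under both treatments. LPS raised Cd86 by 4.41 ± 0.114 log2 units (SE) in WT (21.3-fold, adjusted p = 1.57e-15) and by 4.39 ± 0.111 in KO-labelled cells (20.9-fold, adjusted p = 9.61e-16). The KO label was higher by 0.47 ± 0.123 under PBS (adjusted p = 0.0109) and by 0.45 ± 0.0918 under LPS (adjusted p = 0.00107), and the difference between these, the interaction, was -0.02 (95% interval -0.34 to 0.30). The PBS call was lost without WT PBS replicate 1 (0.40, adjusted p = 0.0512). Resting cells held Cd80 at 4.92, 6.08 and 6.11 CPM for WT and 6.02, 6.25 and 4.71 CPM for KO-labelled libraries, which overlapped. Under LPS it rose to 69.6, 97.8 and 84.9 CPM in WT and to 109.73, 106.27 and 97.2 CPM in KO-labelled cells, where the groups overlapped by 1 library each. Its response was 3.88 ± 0.133 log2 units in WT (14.7-fold, adjusted p = 2.43e-13) and 4.20 ± 0.134 in KO-labelled cells (18.4-fold, adjusted p = 7.83e-14). Under LPS the KO label was higher by 0.31 ± 0.108 (adjusted p = 0.0312), a call that was lost without WT LPS replicate 1 (0.19, adjusted p = 0.0716), WT LPS replicate 3 (adjusted p = 0.0669), KO-labelled LPS replicate 1 (adjusted p = 0.108) or KO-labelled LPS replicate 2 (adjusted p = 0.0746). It was also lost with library totals alone (0.22, adjusted p = 0.141), upper-quartile scaling and the compared libraries alone. Cd80 differed by -0.01 under PBS (95% interval -0.34 to 0.32), and its interaction of 0.32 did not pass (adjusted p = 0.276) and was 0.18 without KO PBS replicate 3 and 0.20 without WT LPS replicate 1. Within a library, the count ratio of Cd86 to Cd80, not corrected for length, was 1.22 ± 0.0125 in WT PBS, 1.77 ± 0.0721 in WT LPS, 1.73 ± 0.236 in KO PBS and 1.94 ± 0.0519 in KO LPS.

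Cd40, the receptor through which helper T cells license antigen-presenting cells, was among the most strongly induced of all genes, and 0.63% of the tested genes rose more in WT. WT PBS libraries held 8.53, 7.48 and 6.54 CPM and WT LPS libraries 1357, 1537 and 1540 CPM. The KO-labelled values were 5.74, 5.44 and 6.48 CPM under PBS and 1481, 1521 and 1422 CPM under LPS. At rest every KO-labelled library lay below every WT library, and after LPS the groups overlapped. The rise was 7.62 ± 0.103 log2 units in WT (197-fold, adjusted p = 1.14e-18) and 7.97 ± 0.106 in KO-labelled cells (250.3-fold, adjusted p = 4.8e-19). Under PBS the KO label fell by 0.35 ± 0.105 (adjusted p = 0.022), a call lost on leaving out WT PBS replicate 1 (-0.22, adjusted p = 0.195) and, each in turn, 3 other PBS libraries (WT replicate 2 and KO-labelled replicates 1 and 2). Under LPS the difference was -0.00 with a 95% interval of -0.16 to 0.15, and the interaction of 0.35 did not pass (adjusted p = 0.0723) and was 0.21 without WT PBS replicate 1.

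Icosl, the ligand of ICOS, which supports follicular helper and regulatory T cells, showed the largest difference between the genotype labels among the members. At rest it was low and even, at 2.39, 2.29 and 2.29 CPM in WT and 2.31, 2.21 and 2.41 CPM in KO-labelled libraries. After LPS, WT libraries held 34.9, 30.3 and 31.4 CPM and KO-labelled libraries 61.7, 67.5 and 67.5 CPM. The PBS groups overlapped, and under LPS the lowest KO-labelled library was well above the highest WT library. LPS raised Icosl by 3.79 ± 0.0907 log2 units in WT (13.8-fold, adjusted p = 4.31e-16) and by 4.82 ± 0.0876 in KO-labelled cells (28.3-fold, adjusted p = 1.19e-17). The KO label was therefore 2.04-fold higher under LPS (1.03 ± 0.0667 log2 units, adjusted p = 1.45e-08), whereas under PBS the difference was -0.01 with a 95% interval of -0.27 to 0.25. The interaction was 1.03 ± 0.141 (adjusted p = 0.000123), and 2.97% of the tested genes had a larger positive one. Over the alternatives tried, this value stayed between 0.90 and 1.09 and the LPS difference between 0.94 and 1.09, with each of them past the threshold. Without WT LPS replicate 1, the highest WT library for this gene, the LPS difference was 1.09.

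The PD-1 ligands lie side by side in the genome, and per kilobase of transcript Cd274 was at 616 CPM and Pdcd1lg2 at 0.935 CPM in WT LPS. Under PBS, Cd274 held 94.5, 101.5 and 103 CPM in WT and 98.2, 104 and 99.8 CPM in KO-labelled libraries. LPS took it to 2097, 2348 and 2250.0 CPM in WT and to 2784, 2771 and 2895 CPM in KO-labelled cells, where every KO-labelled library exceeded every WT library. It rose by 4.48 ± 0.0668 log2 units in WT (22.4-fold, adjusted p = 2.05e-18) and by 4.80 ± 0.0678 in KO-labelled cells (27.9-fold, adjusted p = 7.77e-19). The KO label was higher by 0.34 ± 0.0576 under LPS (adjusted p = 0.000229) and differed by 0.02 under PBS (95% interval -0.11 to 0.14), with an interaction of 0.32 ± 0.0826 (adjusted p = 0.0138). That interaction was lost with library totals alone (0.18, adjusted p = 0.153) and without KO PBS replicate 1 (0.27, adjusted p = 0.0592). Pdcd1lg2 was close to the limit of detection, with 4, 3 and 10 counts in WT PBS and 10, 8 and 7 counts in KO PBS. Under LPS it had 26, 35 and 24 counts in WT (1.504, 1.99 and 1.35 CPM) and 13, 14 and 15 counts in KO-labelled cells (0.798, 0.857 and 0.933 CPM). Here the order of the labels was the opposite of that of Cd274, with every KO-labelled LPS library below every WT one. It rose by 2.96 ± 0.346 log2 units in WT (7.76-fold, adjusted p = 6.87e-07) and by 1.54 ± 0.368 in KO-labelled cells (2.91-fold, adjusted p = 0.00109), the latter lost with library totals alone (0.75, adjusted p = 0.0694). Without WT PBS replicate 3, the WT PBS library with the most counts, the WT rise was 3.62. Under PBS the label difference of 0.52 did not pass (adjusted p = 0.439, 95% interval -0.42 to 1.45), and it ran from 0.22 without WT PBS replicate 2 to 1.18 without WT PBS replicate 3. Under LPS the KO label fell by 0.90 ± 0.296 (adjusted p = 0.0223), which was lost on leaving out WT LPS replicate 2 (-0.72, adjusted p = 0.101), KO LPS replicate 1 or KO LPS replicate 2, and the interaction of -1.42 did not pass (adjusted p = 0.0798). The count ratio of Cd274 to Pdcd1lg2 ran from 1178 to 1662 in WT LPS and from 3104 to 3489 in KO LPS. Under PBS it ran from 289 to 946 in WT and from 281 to 403 in KO-labelled libraries, which overlapped. These PBS ratios rest on 3 to 10 counts of Pdcd1lg2.

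Havcr2 was the member that fell. WT PBS libraries held 37.4, 32.8 and 30.6 CPM and WT LPS libraries 3.99, 3.47 and 3.22 CPM, and the KO-labelled values were 46.8, 42.9 and 42.1 CPM under PBS and 3.99, 4.59 and 4.17 CPM under LPS. At rest each KO-labelled library lay above each WT library, and under LPS the groups overlapped. LPS lowered it 9.43-fold in WT (log2 fold change -3.24 ± 0.108, adjusted p = 3.46e-14) and 10.3-fold in KO-labelled cells (-3.37 ± 0.105, adjusted p = 1.2e-14), and 2.04% of the tested genes fell further in WT. The KO label was higher by 0.39 ± 0.0770 under PBS (adjusted p = 0.00164), and the value of 0.26 under LPS did not pass (adjusted p = 0.183, 95% interval -0.06 to 0.57). The interaction of -0.13 did not pass (adjusted p = 0.658), and it ran from -0.25 without WT PBS replicate 1 to -0.04 without WT LPS replicate 1.

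The activation markers were both lower in KO-labelled cells after LPS. Under PBS, Cd83 held 30.1, 31.9 and 34.4 CPM in WT against 25.2, 27.3 and 26.7 CPM in KO-labelled libraries, and under LPS 235, 278 and 267 CPM against 212, 205 and 210.3 CPM. No group overlapped another, with the KO label below WT under each treatment. Cd83 rose by 3.02 ± 0.0733 log2 units in WT (8.09-fold, adjusted p = 5.26e-16) and by 2.99 ± 0.0739 in KO-labelled cells (7.92-fold, adjusted p = 5.25e-16). The KO label fell by 0.28 ± 0.0729 under PBS (adjusted p = 0.00976) and by 0.31 ± 0.0668 under LPS (adjusted p = 0.00137), and the interaction was -0.03 (95% interval -0.24 to 0.18). The PBS call was lost without WT PBS replicate 3 (-0.23, adjusted p = 0.0596) or KO PBS replicate 1 (-0.22, adjusted p = 0.0885). Cd69 was nearly silent at rest, at 0.832, 0.751 and 0.786 CPM with the WT label and 0.805, 0.807 and 1.24 CPM with the KO label. After LPS it held 450.3, 607 and 528 CPM in WT and 413, 427 and 425 CPM in KO-labelled cells. The PBS groups overlapped and the LPS groups did not. Its rise of 9.38 ± 0.147 log2 units in WT (664-fold, adjusted p = 3.91e-18) was exceeded by 0.257% of the tested genes, and in KO-labelled cells the rise was 8.79 ± 0.143 (441-fold, adjusted p = 4.24e-18). Under LPS the KO label fell by 0.33 ± 0.0864 (adjusted p = 0.0065), and the difference of 0.26 under PBS did not pass (adjusted p = 0.503, 95% interval -0.29 to 0.82). Leaving out 1 library took the PBS value from 0.05 without KO PBS replicate 3 to 0.40 without KO PBS replicate 1, and the LPS value to -0.22 without WT LPS replicate 2 (adjusted p = 0.0341). The interaction of -0.59 did not pass (adjusted p = 0.156) but passed without WT LPS replicate 1 (-0.69, adjusted p = 0.0361), and it was -0.38 without KO PBS replicate 3.

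The genotype labels were thus compared in 3 ways over the members. Under PBS 4 of 9 passed the test, Cd86 and Havcr2 higher and Cd40 and Cd83 lower, against 25.3% of all genes (12.3% higher and 13% lower). None of these 4 exceeded 1 log2 unit, as 3.31% of all genes did. Under LPS 7 of 9 passed, Icosl, Cd86, Cd274 and Cd80 higher and Pdcd1lg2, Cd69 and Cd83 lower, against 41.4% of all genes (22.1% higher and 19.3% lower). Of these 7, only Icosl exceeded 1 log2 unit, as did 4.72% of all genes. The libraries of the labels did not overlap for 4 members under PBS and 6 under LPS, against 48.1% and 45.6% of all genes. The interaction passed for Cd274 and Icosl, 2 of 9 members and both positive, against 18% of all genes (9.78% positive and 8.26% negative). Of the 2 that passed, Icosl exceeded 1 log2 unit, as 2.69% of all genes did while passing; the larger value of Pdcd1lg2, -1.42, did not pass. These comparisons share libraries with each other and with the LPS comparisons, and are given side by side for that reason. Of all calls, the share that was higher moved with the scaling, from 48.6% under PBS and 53.4% under LPS to 61.6% and 37.9% with library totals alone, and from 54.2% for the interaction to 24.4%. With upper-quartile scaling it was 41.6% under LPS and 43.1% for the interaction. Members moved in both directions, and their median log2 difference was 0.02 under PBS and 0.26 under LPS.

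**Figure D3:**
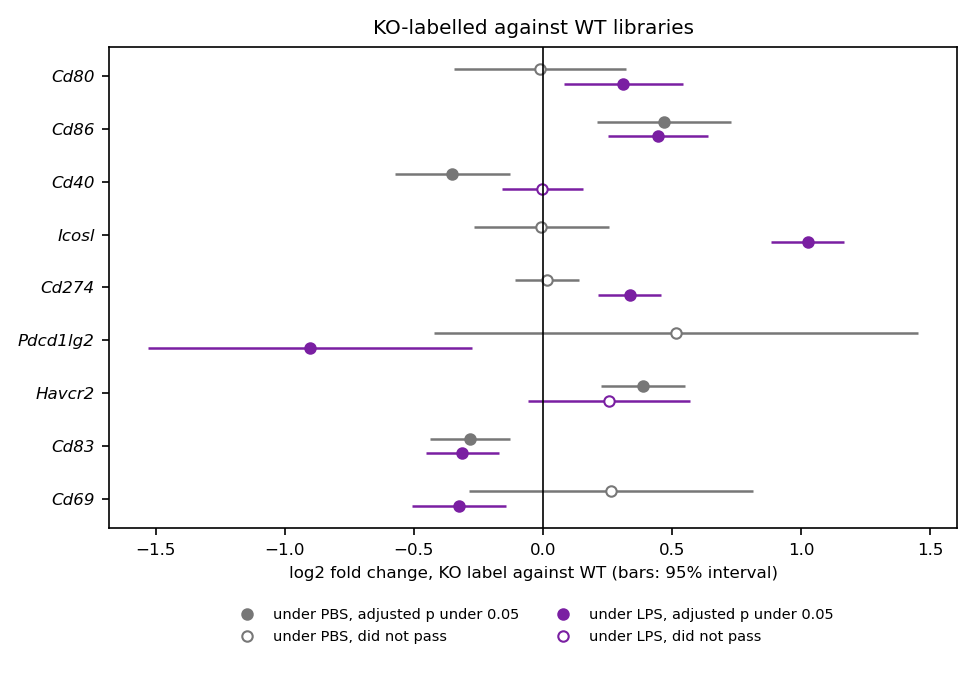
Log2 fold change of KO-labelled against WT libraries under PBS (grey) and LPS (purple), with bars for the 95% interval and filled points for adjusted p under 0.05. Icosl under LPS, at 1.03, is the point farthest from 0 on the right, and Pdcd1lg2, at -0.90, the farthest on the left.

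Ratios of members within a library do not depend on how libraries are scaled. The count ratio of Icosl to Cd83 was 0.0725 ± 0.00641 in WT PBS and 0.0876 ± 0.00585 in KO PBS, and rose to 0.125 ± 0.0206 in WT LPS and 0.313 ± 0.0202 in KO LPS. Cd69 to Cd86 was 3.57 ± 0.169 in WT LPS and 2.09 ± 0.105 in KO LPS, and the 3 libraries of one did not reach those of the other. Cd274 to Cd80 did not separate the labels, at 26.9 ± 3.09 in WT LPS and 27.1 ± 2.37 in KO LPS. A group of 3 against 3 cannot go below 0.10 in an exact two-sided permutation test, so these ratios are given as descriptions.

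**Figure D4:**
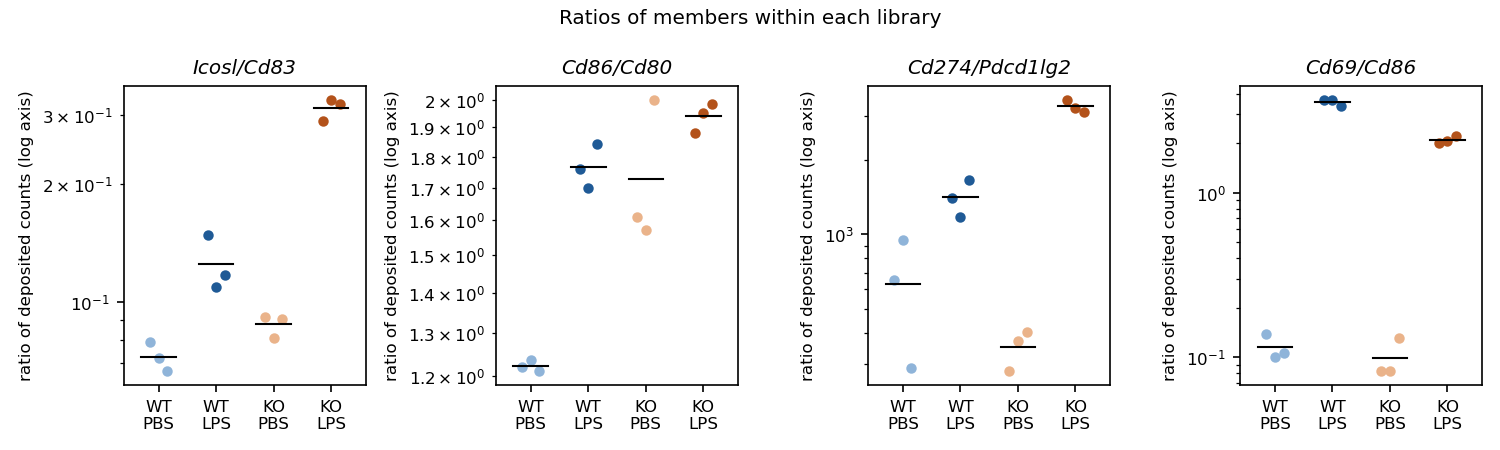
Ratio of deposited counts of 2 members within each library, on log axes, with 1 point per library and a bar at the group mean. Icosl over Cd83 is highest in KO LPS, from 0.290 to 0.329, and Cd69 over Cd86 is lower in KO LPS, from 1.999 to 2.204, than in WT LPS, from 3.374 to 3.678.

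Genes with the most similar profile were sought among 9320 genes by Pearson correlation of log2 CPM over the 12 libraries. Because the libraries form separate PBS and LPS sets, these coefficients share the step between them and are given as a description. Icosl was most like Nlrp3 and Ralb (both 0.9991), Cd274 most like Ccrl2 (0.9997) and Gsdmd (0.9995), and Cd69 most like Irf1 (0.9993) and Socs1 (0.9991). Cd40 followed Usb1 and Ifi47 (both 0.9996), Cd86 followed Snx10 and Nampt (both 0.9993), Cd80 followed Sptlc2 (0.9989) and Bcl2a1b (0.9988), and Cd83 followed Calhm6 (0.9991) and Serpina3f (0.9989). Havcr2 was most like Cat (0.9987) and Cxcr4 (0.9979). Pdcd1lg2, with few counts, reached 0.9699 with Dpy19l1 and 0.9653 with Otud1.

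Other ligands and surface molecules of the antigen-presenting side were taken from a list of 29 genes, of which 25 were tested. In WT, LPS raised 16 and lowered 6 of the 25, beside 76.7% of all genes called, and it did so for 16 and 6 in KO-labelled cells, beside 79.9%. With library totals alone the counts were 13 higher and 10 lower in WT and 15 and 10 in KO-labelled cells. The genes named next are those called with the largest change among genes with a mean CPM of 5 or more in the higher group. Tnfsf15 (TL1A) rose by 9.69 log2 units in WT and 10.30 in KO-labelled cells, Tnfsf9 (4-1BB ligand) by 5.25 and 6.06, and Icam1, the adhesion ligand of LFA-1, by 5.30 and 5.34. Slamf1 had 0 to 2 counts in WT PBS and 331 to 429 in WT LPS, and against a floor of 3 counts per library it was at least 304-fold higher in KO LPS than in KO PBS, where it had 0 counts. Tnfsf4 (OX40 ligand) had 0 to 2 counts in WT PBS and 139 to 194 in WT LPS, then 0 to 1 in KO PBS and 92 to 118 in KO LPS, and no fold is given for it. Between the labels under PBS, 3 of the 25 were higher and 8 lower, beside 25.3% of all genes called. Above the CPM limit the largest were Cd24a (0.58), Cd276 (-0.55), Lgals9 (-0.47), Icam1 (-0.41) and Cd48 (0.38), and below it Tnfsf14 (-1.11), Nectin2 (-1.06), Tnfsf9 (-0.79) and Vsig4 (-0.73) were lower by more. Under LPS 6 were higher and 5 lower (4 and 8 with library totals alone), beside 41.4% of all genes called, and above the CPM limit the largest were Nectin2 (-1.02), Tnfsf15 (1.01), Slamf1 (0.60), Ly9 (0.57) and Cd24a (0.54). The interaction passed for 6 genes, each positive, beside 18% of all genes, but for 5 positive and 4 negative with library totals alone, 6 and 1 with upper-quartile scaling and 6 and 2 with DESeq2. The largest was Tnfsf14 (2.02), below the CPM limit, and above that limit the largest were Tnfsf9 (0.80), Lgals9 (0.52), Cd200 (0.48), Ly9 (0.45) and Cd47 (0.38). Cd276 under PBS was lost on leaving out any of 3 PBS libraries (WT replicate 1 and KO-labelled replicates 1 and 3), and the Cd47 interaction with library totals alone (0.24, adjusted p = 0.0927) and without KO PBS replicate 1.

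Receptors that lymphocytes use to read these ligands were taken from a second list of 16 genes, of which 6 were tested. LPS raised 3 and lowered 1 of the 6 in both labels, beside 76.7% and 79.9% of all genes called. Under LPS 1 was higher and 1 lower with the KO label, beside 41.4% of all genes. The genes named here were chosen after their values were seen. Cd28, the receptor of CD80 and CD86, was present in resting cells at 37.2, 38.9 and 34.8 CPM under the WT label and 54.4, 51.2 and 50.8 CPM under the KO label. After LPS it held 1.62, 1.48 and 1.02 CPM in WT and 1.17, 0.796 and 0.435 CPM in KO-labelled libraries. Cd28 fell by 4.75 log2 units with LPS in WT (edgeR adjusted p = 6.25e-15), and the log2 fold change was -6.01 in KO-labelled cells (adjusted p = 7.3e-16), with an interaction of -1.27 (adjusted p = 0.00763). The PBS groups did not overlap, and the KO label was higher by 0.50 (adjusted p = 0.000443). Under LPS the label difference of -0.77 (adjusted p = 0.04) was lost with the compared libraries alone (-0.78, adjusted p = 0.108) and on leaving out any of 4 LPS libraries (WT replicates 1 and 2 and KO-labelled replicates 2 and 3), each in turn. Cd3e, Cd3d and Cd3g stayed at 0 to 2 counts in these libraries. Among the other listed T cell markers, the LPS log2 fold change of Cd4 was -0.96 in WT and -1.29 in KO-labelled cells. It was -1.14 and -1.27 for Cd2 and 7.05 and 5.50 for Lck, Cd8a did not pass, and Cd5 was below the low-count filter. The part of other cells in the Cd28 values was not tested.

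**Figure D5:**
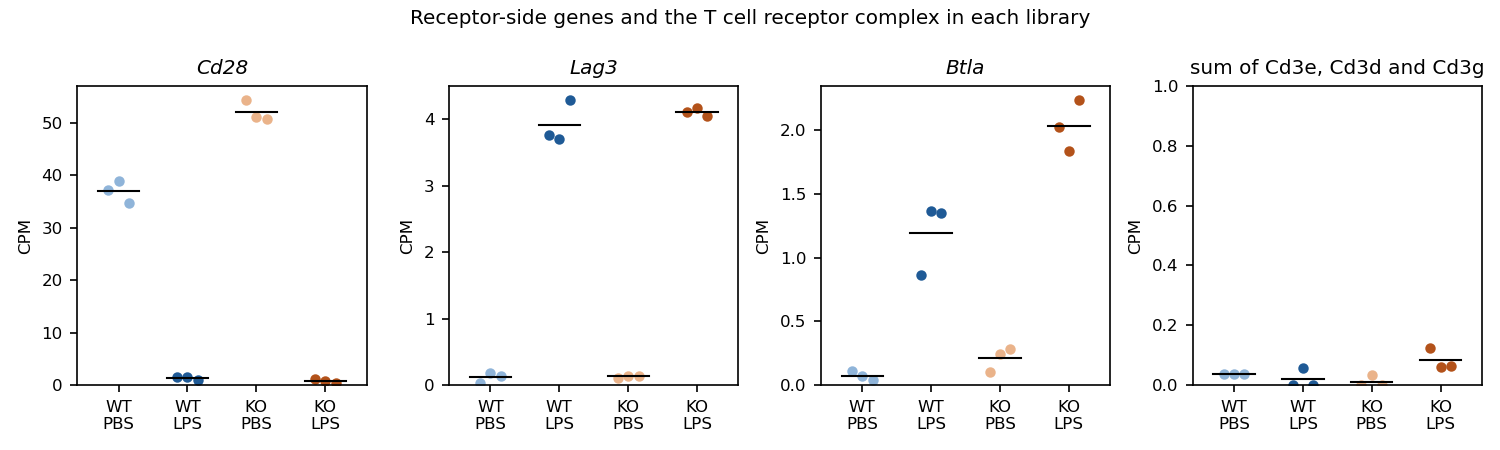
CPM of Cd28, Lag3, Btla and the sum of Cd3e, Cd3d and Cd3g in every library, on linear axes, with 1 point per library and a bar at the group mean. Cd28 falls from 34.8 to 54.4 CPM under PBS to 0.435 to 1.62 CPM under LPS, while Lag3 and Btla rise.

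Lag3, an inhibitory receptor of MHC class II, went the other way. It had 1 to 5 counts in WT PBS and 65 to 76 in WT LPS, and rose by 4.97 log2 units in WT (edgeR adjusted p = 2.61e-11) and 4.93 in KO-labelled cells (adjusted p = 1.89e-11). Btla, a receptor of HVEM, had 1 to 3 counts in WT PBS and 15 to 24 in WT LPS, and rose there with an adjusted p of 3.02e-07 by edgeR. In KO-labelled cells it had 3 to 8 counts under PBS and 30 to 36 under LPS (3.23 log2 units, adjusted p = 8.15e-08). Pdcd1, the receptor of both PD-1 ligands, had 0 counts in all 6 PBS libraries, which allows up to 0.105 to 0.108 CPM per library, and 2 to 9 counts in the LPS libraries.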

How the data were processed

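RNA from 12 mouse peritoneal macrophage libraries was sequenced as single 50-base reads on a BGISEQ-500. The authors deposited 1 table of expected counts per gene for each library, not normalized. The submitters' processing notes name Bowtie2, RSEM 1.3.1 and GRCm38.p6, while the paper's methods name STAR and HTSeq. Between 24.6% and 26.9% of values per library carried decimals, which fits estimated counts. Cd274 and Havcr2 carried decimals in 12 of 12 libraries, and whether reads shared with other genes gave these was not tested. Whether counting used strand is not given in the sources used here.

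Counts were rounded and fitted with edgeR 4.0.16 in R 4.3.3 (filterByExpr, TMM scaling, quasi-likelihood F test, 1 coefficient for each of the 4 groups), with limma 3.58.1 loaded. The 5 contrasts were LPS against PBS in each label, KO against WT under each treatment, and their interaction. P-values were adjusted by Benjamini-Hochberg over 12064 genes, at a threshold of 0.05. They judge each difference against the spread between libraries. The typical biological coefficient of variation was 6.99%. DESeq2 1.42.0, other scalings, filters and designs, a replicate block and leaving out each library were the alternatives, and the scripts were tested on simulated data.

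The 9 members, the gene lists and the tests were chosen with earlier results of these data known. All members are named in every contrast. Of the 29 genes of the antigen-presenting side, the 5 called with the largest change and a mean CPM of 5 or more in whichever group was higher are named, and for each member the 2 most similar genes. Promoters came from RefSeq.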

Additional observations from a re-analysis of the deposited data

Results flagged for a closer look

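The response to LPS differed between the genotype labels for Icosl, by 1.03 log2 units in the interaction term (adjusted p = 0.000123 by edgeR's quasi-likelihood test), and 3 of 3 KO-labelled LPS libraries lay above all 3 WT LPS libraries. It also differed for Cd274, by 0.32 log2 units (adjusted p = 0.0138), again with 3 of 3 KO-labelled LPS libraries above all 3 WT ones. The Icosl term passed in each of the 19 alternatives run. The Cd274 term was lost with library totals alone and without KO PBS replicate 1, and Cd274 counts carried decimals in every library. Skeletal muscle markers were lower with the KO label under LPS, and Ythdf1 was higher with it under PBS. Their part in these terms was not tested.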

How the results depend on the processing

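The response to LPS kept its direction and its side of the threshold in 179 of 179 member values in WT and in 178 of 179 in KO-labelled cells, and the count stayed at 9 to 9 of 9 on leaving out each library in turn. Upper-quartile scaling moved the median of all genes by -0.31 in WT and -0.36 in KO-labelled cells, and library totals alone by -0.66 and -0.80 (-0.14 for the interaction), and changes of members are read relative to that shift. Under PBS the count between labels ran from 2 to 4 on leaving out libraries (2 without WT PBS replicate 1 or without KO PBS replicate 1). It was 0 when more than 1 log2 unit was required. Under LPS it ran from 5 to 7 and was 1 above 1 log2 unit. For the interaction it ran from 1 to 4 (1 without KO PBS replicate 1, and 4 without WT PBS replicate 3, where Cd40 at 0.44 and Pdcd1lg2 at -2.09 passed), and was 1 with library totals alone and 1 above 1 log2 unit.

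The sign turned where there was no call. Between labels under PBS, Cd80 was 0.0057 with RLE scaling, 0.037 with library totals and 0.0057 with DESeq2, Icosl 0.0099, 0.042 and 0.0099 in the same order, and Cd274 -0.0064 with upper-quartile scaling. The median shift of all genes in this contrast was 0.017 with RLE scaling, 0.049 with library totals and -0.022 with upper-quartile scaling. On leaving out libraries Cd80 ranged from -0.078 to 0.126 and Icosl from -0.0177 to 0.0491 under PBS, Cd40 from -0.0604 to 0.0274 under LPS, and the interaction from -0.0971 to 0.019 for Cd83 and from -0.142 to 0.0674 for Cd86. Cd80 under LPS was lost with upper-quartile scaling (0.24), and with the compared libraries alone (0.30). The causes were not tested. Same-numbered libraries were not paired by the labels, and the correlation of their deviations ran from -0.0758 to 0.127, over 0.1 in 1 of 12 cases. With the replicate number as a block the counts were 9, 9, 4, 7 and 2, as without it. Counts of 3 to 10 limit Pdcd1lg2 at rest, and with at least 10 counts required in every library it was not tested.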
